A study of Mus musculus with 20 samples.

Results

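The genes described here carry cargo between the endoplasmic reticulum (ER) and the Golgi apparatus: subunits of the COPII and COPI coats, the GTPases and other factors that assemble and shed them, cargo receptors, and the SNARE proteins and tethers of vesicle fusion. They are 43 mouse genes listed by symbol, and the list was drawn up with earlier results of these data known. All 43 were found in the count table of 43472 genes, and all 43 passed the filter for testing, a normalized count of 10 or more in 5 or more libraries, as did 15261 genes in all. RNA of ventral prostates was sequenced in bulk in 20 libraries, 5 in each of 4 groups. The ARNoC groups are ARNoC/Y males given testosterone and ARNoC/Y males given vehicle, and the WT groups are wild type C57BL/6J males given testosterone and wild type males given vehicle. Males of all 4 groups had been orchidectomised, so vehicle males lacked testicular androgen, and treatment lasted 4 days. ARNoC/Y males carry on their only X chromosome an androgen receptor altered so that its amino-terminal and carboxyl-terminal parts do not bind each other. The labels give no dose and no age of the males. They do not say that each library came from its own male, so a p-value here speaks to the spread among libraries, which may be technical.

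COPII vesicles bud from the ER. The GTPase Sar1, loaded with GTP by Preb (also called Sec12) at sites marked by Sec16, recruits the inner coat of Sec23 and Sec24, and the cage of Sec13 and Sec31 closes over it. COPI vesicles bud from Golgi membranes under the GTPase Arf1 and return escaped ER residents and receptors to the ER, while Arf GTPase-activating proteins release the coat. Prostate luminal cells make secreted proteins in bulk, and all of these pass through this route before they reach the lumen.

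The transport genes were higher with testosterone in both genotypes, nearly as a whole. In ARNoC prostates 37 of the 43 members rose, 2 fell and 4 did not pass the test, and in WT prostates 40 rose, 2 fell and 1 did not pass. Uso1, the tether that holds arriving vesicles at the Golgi, rose most in both, to 2.59 times the vehicle level in ARNoC and 2.89 times in WT. Sec24b, one of 4 cargo-binding subunits of COPII, and Arfgap2, which sheds COPI, were the 2 that fell in each genotype. Calls rest on the quasi-likelihood test of edgeR at an adjusted p of 0.05, with the Benjamini-Hochberg method applied over all 15261 genes tested. In ARNoC 19.4% of all genes tested rose and 16.8% fell under the same rule, and in WT 20.4% rose and 18.8% fell.

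Most rises were below 2-fold. Called rises ran from 1.15-fold to 2.59-fold in ARNoC, with a median of 1.52-fold, and from 1.18-fold to 2.89-fold in WT, with a median of 1.63-fold. A rise of at least 2-fold was called for 5 members in ARNoC, where 5.1% of all genes tested did so, and for 8 in WT, where 5.04% did. Every testosterone library lay above every vehicle library for 32 members in ARNoC and for 40 in WT. Over all genes tested the same separation held for 12.4% in ARNoC and 15.2% in WT. The median log2 change of the members was 0.58 in ARNoC and 0.68 in WT, and that of all genes tested was -0.01 in ARNoC and -0.02 in WT.

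**Figure D1:**
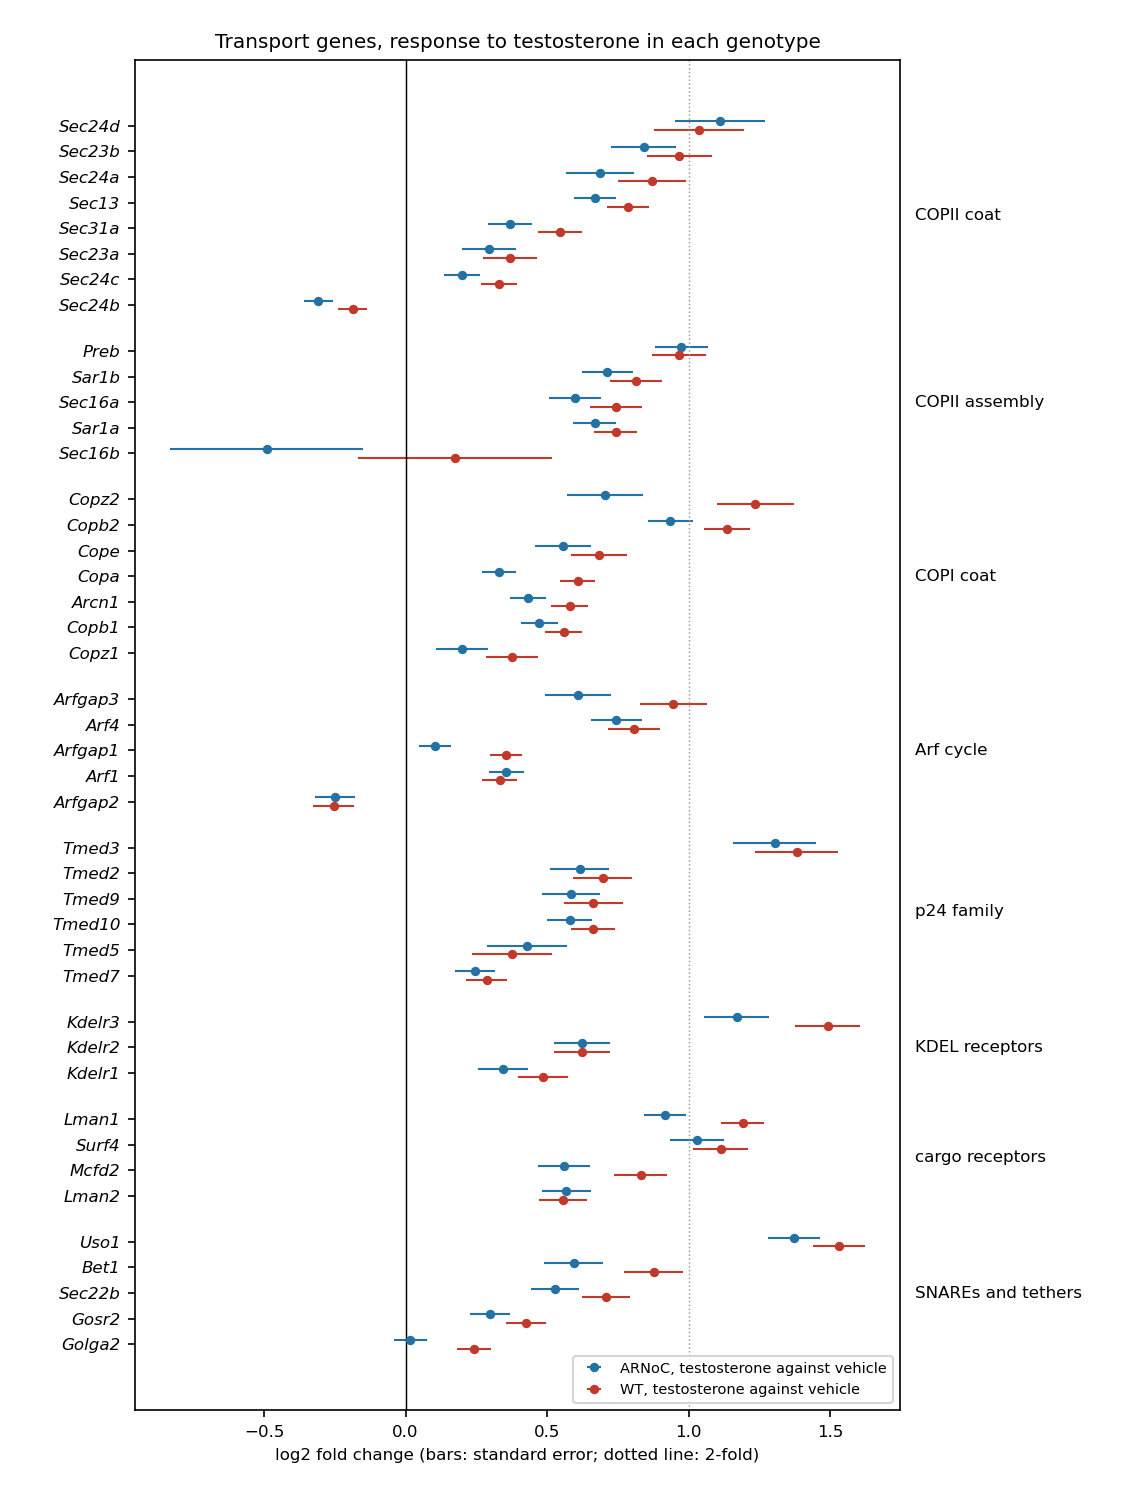
Log2 fold change of testosterone over vehicle (x axis, with standard errors) for the 43 transport genes (rows, by class), in ARNoC (blue) and WT (red). Nearly all points lie right of 0, Uso1, Tmed3 and Kdelr3 reach furthest in WT, and Sec24b and Arfgap2 lie left of 0 in both genotypes.

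How these libraries are scaled bears on the small changes. The 10 most abundant genes of a library held 18.4% to 20.8% of its counts in ARNoC with testosterone, against 6.81% to 10.4% with vehicle, and 21.4% to 28.1% in WT with testosterone, against 7.99% to 9.56% with vehicle. The scaling used here, trimmed means of M-values, sets such genes aside. Scaling to total counts in its place shifted the median of all genes by -0.35 in ARNoC and by -0.42 in WT on the log2 scale. Under it 25 members rose and 6 fell in ARNoC, and 27 rose and 3 fell in WT. Of the rises called above, 11 in ARNoC and 12 in WT were then no longer called, and 1 in each genotype, Sec24c in ARNoC and Golga2 in WT, was called as a fall. Over all genes 1178 rose and 7537 fell in ARNoC, and 1099 rose and 9105 fell in WT. Relative to the median of all genes, the median member then stood at 0.59 in ARNoC and 0.70 in WT. The members' summed share of the counts of a library was 0.984% to 1.07% in ARNoC with testosterone, against 0.784% to 0.885% with vehicle, and 0.958% to 1.10% in WT with testosterone, against 0.760% to 0.869% with vehicle. A share is itself scaled to total counts, and its ranges did not overlap within either genotype. The size of the difference depends on the scaling. The mean share was 1.02% in ARNoC with testosterone, against 0.842% with vehicle, and 1.03% in WT with testosterone, against 0.816% with vehicle, whereas the members' normalized counts summed on average to 136510 in ARNoC with testosterone, against 88562 with vehicle, and to 146276 in WT with testosterone, against 86578 with vehicle.

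Libraries held 8861646 to 21600352 counts. Among testosterone libraries, ARNoC library 2 was the highest of its group for 29 of 43 members and WT library 2 for 27 of 43. WT vehicle library 2 and ARNoC vehicle library 5 hold few counts of stromal markers, and without both of them 36 members rose in ARNoC and 39 in WT. Markers of other cell types moved with testosterone too, and in bulk tissue fewer cells of a type and less RNA per cell cannot be told apart. Of 12 myeloid markers 10 were lower in ARNoC and 12 in WT. Their summed share of counts was 0.0192% to 0.0397% in ARNoC with testosterone, against 0.0261% to 0.123% with vehicle, and 0.0100% to 0.0259% in WT with testosterone, against 0.0306% to 0.180% with vehicle. Of 11 fibroblast markers 1 was lower in ARNoC and 6 in WT. Their share was 0.0760% to 0.218% in ARNoC with testosterone, against 0.0555% to 0.488% with vehicle, and 0.0319% to 0.144% in WT with testosterone, against 0.0826% to 0.602% with vehicle. Of 12 luminal epithelial markers 2 were higher and 7 lower in each genotype. The luminal share was 0.591% to 0.699% in ARNoC with testosterone, against 0.819% to 0.936% with vehicle, and 0.513% to 0.569% in WT with testosterone, against 0.785% to 0.988% with vehicle. All these shares are scaled to total counts. As summed normalized counts the luminal ranges overlapped within each genotype. They were 76988.5 to 97843 in ARNoC with testosterone, against 84225 to 100859 with vehicle. In WT they were 70494 to 87844 with testosterone, against 81979 to 104852 with vehicle. No marker of these 3 lists was at 0 in all libraries of a group. Of 8 basal markers 5 were lower in ARNoC and 4 in WT, of 8 tested lymphocyte markers 5 in ARNoC and 6 in WT, and of 8 endothelial markers 0 in ARNoC and 3 in WT, while of 8 smooth muscle markers 5 were higher in ARNoC and 2 in WT. The part of these lists in the members' changes was not tested.

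Since the members moved together, their promoters were searched for motifs bound by factors of the unfolded protein response, by CREB-like factors, by ETS factors and by the androgen receptor. Promoter sequences, from 250 bases before to 50 bases after the start of transcription, were those of RefSeq on GRCm38.p6. The table held 38 of the 43 members. In all 12 motifs were searched on both strands. The letters TGACGTGG, the core of the element bound by spliced Xbp1 and Atf6, were in the promoters of 7 of 38 members, against 0.714% of all 27025 genes in the table and 1.09% of the 10604 tested genes in it. These 7 were Sec23a, Sec24d, Sec16b, Copb1, Copb2, Arf1 and Kdelr3. Their windows of 30 bases are shown because they hold the motif, in capitals, on the strand of the gene from 5′ to 3′, and CCACGTCA is its reverse complement.
Sec24d, chr3:123267459-123267488, plus strand: gcccgggcgccTGACGTGGcactagcaacc
Sec23a, chr12:59011993-59012022, minus strand: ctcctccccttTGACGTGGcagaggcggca
Sec16b, chr1:157506741-157506770, plus strand: ttctgtgtggcTGACGTGGcacggcagttt
Copb1, chr7:114254690-114254719, minus strand: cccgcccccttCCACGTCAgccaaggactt
Copb2, chr9:98563713-98563742, plus strand: tcccggaagttCCACGTCAgtgggttggcc
Arf1, chr11:59228228-59228257, minus strand: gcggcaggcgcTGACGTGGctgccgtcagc
Kdelr3, chr15:79516367-79516396, plus strand: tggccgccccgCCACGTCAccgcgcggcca

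The shorter string CCACGT, which is contained in the reverse complement of that motif, was in 20 of 38 member promoters, against 9.40% of all genes in the table and 13.0% of the tested ones. The whole promoters of Uso1 and Kdelr3, the 2 members with the largest WT rises, are shown with CCACGT and its reverse complement in capitals. Uso1 holds 4 copies, of which 2 overlap in 1 palindrome, and Kdelr3 holds 1, the same as in its window above.
Uso1, chr5:92137688-92137987, plus strand: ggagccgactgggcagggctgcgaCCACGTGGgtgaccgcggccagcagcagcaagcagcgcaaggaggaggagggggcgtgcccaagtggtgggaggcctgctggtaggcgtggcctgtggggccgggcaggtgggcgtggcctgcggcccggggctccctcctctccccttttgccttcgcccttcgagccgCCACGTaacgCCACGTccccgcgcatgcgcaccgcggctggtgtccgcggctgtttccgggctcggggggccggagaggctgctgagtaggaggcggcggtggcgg
Kdelr3, chr15:79516158-79516457, plus strand: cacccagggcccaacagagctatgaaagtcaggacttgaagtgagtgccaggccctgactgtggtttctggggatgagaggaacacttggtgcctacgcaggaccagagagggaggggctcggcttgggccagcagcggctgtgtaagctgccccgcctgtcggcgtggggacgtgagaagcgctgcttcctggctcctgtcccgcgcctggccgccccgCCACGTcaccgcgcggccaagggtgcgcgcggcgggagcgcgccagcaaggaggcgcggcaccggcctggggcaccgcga

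A match is a description of letters and not of a bound site. Members with TGACGTGG had a median log2 change of 0.47 in ARNoC and 0.56 in WT, and those without it 0.58 in ARNoC and 0.71 in WT. Over the tested genes in the promoter table, members included, 40.5% of those with the motif rose in WT, against 21.3% of those without. The cyclic AMP response element TGACGTCA was in 2 members, Cope and Gosr2, against 2.03% of all genes and 3.5% of tested ones. The ETS motif CCGGAAG was in 13 of 38 members, against 9.93% of all genes and 18.8% of tested ones. The ER stress element, CCAAT and CCACG spaced by 9 bases, was in 0 of 38 members and in 0.137% of all genes, and its second form, ATTGG and CCACG spaced by 1 base, was in 0 and in 0.0444%. The full androgen response element, AGAACA and its inverted repeat spaced by 3 bases, was in 0 of 38 members and in 0.0111% of all genes, and the single arm AGAACA was in 2 members, Sec23b and Sec24a, against 21.3% of all genes and 15.0% of tested ones. The remaining strings were parts of these motifs. CCACG alone was in 30 of 38 members (78.9%), against 35.5% of all genes and 51.0% of tested ones. CCAAT was in 17 (44.7%), against 41.1% of all genes and 42.2% of tested ones, and TGACG in 21 (55.3%), against 23.0% and 34.2%. The ER stress element without its last base was in 0 members and in 0.429% of all genes. The search covers these 300 bases alone, and no distal site was examined.

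In the COPII coat, 7 of 8 subunits rose and 1 fell in each genotype, and the 4 Sec24 paralogues, which read the sorting signals of cargo, moved unequally. Sec24d, whose promoter holds TGACGTGG as shown (chr3:123267455-123365641, mm10, as are all coordinates here) rose most. In ARNoC libraries it had 975, 1331, 1565, 1259 and 1323 normalized counts with testosterone, against 645, 736, 496, 636 and 485 with vehicle. In WT libraries it had 1101, 1428, 1058, 1781 and 1513 with testosterone, against 817, 758, 668, 514 and 618 with vehicle. All testosterone libraries lay above all vehicle libraries, although the testosterone libraries of each genotype spread widely. The log2 change was 1.11 ± 0.16 in ARNoC and 1.04 ± 0.16 in WT (standard error), with edgeR adjusted p of 1.47e-05 and 3.03e-05. Sec24b (chr3:129982759-130061553) went the other way. ARNoC libraries held 602, 589, 629, 645 and 659 normalized counts with testosterone, against 823, 779.6, 720.4, 787 and 777 with vehicle. WT libraries held 673, 632, 703, 669.5 and 694 with testosterone, against 762, 753, 733, 818 and 792 with vehicle. Every testosterone library lay below every vehicle library of its genotype, by a small margin in WT. The fall was to 0.807 of the vehicle level in ARNoC and 0.879 in WT, with edgeR adjusted p of 8.93e-05 and 0.00725.

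The other subunits of the COPII coat rose in both genotypes. Sec23b, one of 2 paralogues that stimulate GTP hydrolysis by Sar1, rose 1.79-fold in ARNoC and 1.96-fold in WT. Its paralogue Sec23a rose 1.23-fold in ARNoC and 1.29-fold in WT, and its ARNoC libraries overlapped. Sec24a, the closest relative of Sec24b, rose 1.61-fold in ARNoC and 1.83-fold in WT, and Sec24c rose 1.15-fold in ARNoC and 1.26-fold in WT. Of the outer cage, Sec13 rose 1.59-fold in ARNoC and 1.72-fold in WT, and Sec31a rose 1.29-fold in ARNoC and 1.46-fold in WT. With total-count scaling the log2 change of Sec23a turned to -0.05 in ARNoC and -0.06 in WT, and that of Sec24c to -0.15 in ARNoC, where it was called as a fall (edgeR adjusted p = 0.0407), and -0.09 in WT (adjusted p = 0.176). Sec31a was then no longer called, at 0.02 in ARNoC (adjusted p = 0.794) and 0.12 in WT (adjusted p = 0.127).

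Among the factors that start COPII assembly, 4 of 5 rose in each genotype. Preb (chr5:30950853-30960361), the exchange factor of Sar1, rose most. ARNoC libraries held 3023, 4021, 3285, 3140.4 and 3053 normalized counts with testosterone, against 1761, 1821, 1768, 1448 and 1647 with vehicle. WT libraries held 2916, 2969, 2772, 3589 and 3019 with testosterone, against 1545, 1789, 1652, 1494 and 1374 with vehicle. All testosterone libraries lay above all vehicle libraries, and ARNoC testosterone library 2 stood far above the other 4. Preb rose by 0.97 ± 0.09 on the log2 scale in ARNoC and by 0.97 ± 0.09 in WT, with edgeR adjusted p of 1.06e-07 and 1.17e-07. Of its exon bases 21.8% overlap Abhd1 on the other strand, and the strand setting of the counting is not given, so reads of the 2 genes may be mixed. Sar1a rose 1.59-fold in ARNoC and 1.67-fold in WT, and its paralogue Sar1b rose 1.64-fold in ARNoC and 1.76-fold in WT. Sec16a, the scaffold of ER exit sites, rose 1.52-fold in ARNoC and 1.68-fold in WT.

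Sec16b (chr1:157506728-157568425), the shorter paralogue of Sec16a, was the least abundant member. In ARNoC it had 29.8, 32.8, 30.4, 15.0 and 24.9 normalized counts with testosterone, against 50.3, 41.2, 21.3, 52.3 and 21.3 with vehicle. In WT it had 18.5, 29.5, 38.8, 48.2 and 49.9 with testosterone, against 42.4, 15.4, 23.2, 39.8 and 45.8 with vehicle. The groups overlapped in both genotypes, and single libraries differed severalfold within a group. The log2 change was -0.49 ± 0.34 in ARNoC and 0.17 ± 0.34 in WT, with edgeR adjusted p of 0.282 and 0.717, so no change was detectable at this depth. Total-count scaling gave -0.85 in ARNoC, with an adjusted p of 0.0489, and -0.24 in WT, with an adjusted p of 0.562.

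Of the 7 COPI coat genes 6 rose in ARNoC and all 7 in WT. The zeta subunit has 2 forms, and Copz2 (chr11:96849870-96861203) rose more than any other COPI gene in WT. ARNoC libraries held 3313, 3810.4, 2013, 3007 and 3213 normalized counts with testosterone, against 1699, 1880.3, 1853, 1538 and 2477 with vehicle. WT libraries held 3814, 4014, 3646, 3361 and 3558 with testosterone, against 1685, 1620.0, 1679, 1503 and 1366 with vehicle. The WT groups lay far apart, whereas in ARNoC testosterone library 3 fell below vehicle library 5. Copz2 had a log2 change of 0.70 ± 0.13 in ARNoC and 1.24 ± 0.14 in WT, with edgeR adjusted p of 3.55e-04 and 5.88e-07. The other form, Copz1 (chr15:103272714-103299868), moved least of the COPI genes. Its ARNoC libraries held 2073, 2321, 1752, 1875 and 2101 normalized counts with testosterone, against 1800.1, 1633, 1949, 1524 and 1946 with vehicle. WT libraries held 1983, 2615, 1886, 2033 and 2054 with testosterone, against 1572, 1778, 1587, 1665 and 1584 with vehicle. The ARNoC groups overlapped, and WT testosterone library 2 stood above the rest of its group. The log2 change of Copz1 was 0.20 ± 0.09 in ARNoC (edgeR adjusted p = 0.0973), and in WT it rose by 0.38 ± 0.09 (adjusted p = 0.00279). Total-count scaling turned these to -0.15 in ARNoC and -0.05 in WT.

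Copa (chr1:172082529-172122330), the alpha subunit, was the most counted member in WT vehicle libraries and one of 3 members called lower in ARNoC than in WT with testosterone. In ARNoC it had 8895, 9255, 8077, 8552 and 8875 normalized counts with testosterone, against 6674, 7145, 6767, 6549 and 7732 with vehicle. WT libraries held 10545, 10859.9, 10094, 10977 and 9776 with testosterone, against 6887, 7249.5, 6841, 6679.6 and 6805 with vehicle. Within each genotype the testosterone libraries lay above the vehicle libraries, and with testosterone all ARNoC libraries lay below all WT libraries. Copa rose by 0.33 ± 0.06 on the log2 scale in ARNoC and by 0.61 ± 0.06 in WT, with edgeR adjusted p of 2.58e-04 and 1.79e-07. Total-count scaling left -0.01 in ARNoC, with an adjusted p of 0.813. Of the exon bases of Copa 9.58% overlap Ncstn and Gm37756 on the other strand, so its counts may include their reads. Copb2, the beta-prime subunit that with Copa forms the outer layer of COPI and binds retrieval signals, rose 1.91-fold in ARNoC and 2.20-fold in WT. Cope, the epsilon subunit, rose 1.47-fold in ARNoC and 1.60-fold in WT. Of the inner layer, Copb1 rose 1.39-fold in ARNoC and 1.47-fold in WT, and Arcn1, the delta subunit, rose 1.35-fold in ARNoC and 1.49-fold in WT. Total-count scaling ended the ARNoC calls of both, at 0.13 for Copb1 (adjusted p = 0.0521) and 0.09 for Arcn1 (adjusted p = 0.220).

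The genes of the Arf cycle divided by paralogue. Arfgap3 (chr15:83299739-83350247), a GTPase-activating protein that binds coatomer, rose most in WT. ARNoC libraries held 3732, 4252, 2980.4, 3863 and 4294 normalized counts with testosterone, against 2636, 2770.0, 2616, 2050.4 and 2509.5 with vehicle. WT libraries held 3959, 4293, 3820.1, 4338 and 4300.1 with testosterone, against 2764, 2246, 2175, 2017 and 1610.3 with vehicle. The treatments did not overlap, although ARNoC testosterone library 3 lay little above the highest vehicle library. The log2 change was 0.61 ± 0.12 in ARNoC and 0.95 ± 0.12 in WT, with edgeR adjusted p of 3.94e-04 and 2.86e-06, and total-count scaling left 0.26 in ARNoC (adjusted p = 0.0542). Arfgap2 (chr2:91264974-91276931), its closest relative, fell in both genotypes. In ARNoC it had 863, 905, 863, 731 and 815 normalized counts with testosterone, against 1038, 976, 1026, 882 and 1059 with vehicle. In WT it had 809.9, 794, 765, 867 and 809.6 with testosterone, against 850.2, 1075, 1002, 971 and 952 with vehicle. Most testosterone libraries lay below the vehicle libraries, with overlap in each genotype. Arfgap2 fell to 0.841 of the vehicle level in ARNoC and 0.839 in WT, with edgeR adjusted p of 0.0100 and 0.00875. Of its exon bases 33.4% overlap 1110051M20Rik on the other strand, so its counts may include reads of that gene.

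Arfgap1 (chr2:180967225-180982526), which senses membrane curvature, did not pass the test in ARNoC and rose weakly in WT. ARNoC libraries held 900.3, 1017, 909, 911 and 923 normalized counts with testosterone, against 853, 889.8, 855, 886 and 873 with vehicle. WT libraries held 1110.2, 1081, 1174, 1276 and 1089 with testosterone, against 891, 903, 960.2, 918 and 831 with vehicle. In ARNoC the treatments were separated by a narrow gap, and ARNoC testosterone library 2 stood above the other 4. The log2 change was 0.10 ± 0.06 in ARNoC (edgeR adjusted p = 0.156) and 0.35 ± 0.06 in WT (adjusted p = 3.88e-05), and total-count scaling turned both below 0, to -0.24 in ARNoC (adjusted p = 0.00274) and -0.06 in WT. Arf4, a GTPase close to Arf1, rose 1.68-fold in ARNoC and 1.75-fold in WT, and 17.7% of its exon bases overlap Arf4os and Pde12 on the other strand. Arf1 itself rose 1.28-fold in ARNoC and 1.26-fold in WT, and with total-count scaling it was no longer called, at 0.01 in ARNoC (adjusted p = 0.885) and -0.09 in WT (adjusted p = 0.0984).

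All 6 members of the p24 family, transmembrane proteins that cycle between ER and Golgi and help load anchored and secreted cargo, rose in both genotypes. Tmed3 (chr9:89699206-89705068) rose far more than the others. ARNoC libraries held 8899, 10517, 5909, 9344 and 9077 normalized counts with testosterone, against 3311, 3741, 3608, 2949 and 4157 with vehicle. WT libraries held 7995, 9694, 7131, 7229 and 8712 with testosterone, against 4087, 3039, 3104, 3142 and 2356 with vehicle. The treatments did not overlap, and ARNoC testosterone library 3 was well below the other 4 of its group. Tmed3 rose by 1.30 ± 0.15 on the log2 scale in ARNoC and by 1.38 ± 0.15 in WT, with edgeR adjusted p of 8.13e-07 and 3.67e-07. Tmed7 (chr18:46560235-46597535) rose least. ARNoC libraries held 2529.7, 2408, 2720.5, 2776 and 2838 normalized counts with testosterone, against 2252, 2430.0, 2103, 2323 and 2147 with vehicle. WT libraries held 2599, 3245, 2485, 2746 and 2618 with testosterone, against 2285, 2355, 2399, 2221 and 2027 with vehicle. ARNoC libraries overlapped by a few counts, and WT libraries were separate. The log2 change was 0.24 ± 0.07 in ARNoC and 0.29 ± 0.07 in WT, with edgeR adjusted p of 0.0103 and 0.00323. Total-count scaling turned both values below 0, to -0.10 in ARNoC and -0.14 in WT. The ARNoC call for Tmed7 was also lost without testosterone library 3, 4 or 5 (adjusted p = 0.0583, 0.0716 and 0.0790) and without the filter (adjusted p = 0.0656). Of its exon bases 9.48% overlap Ticam2 on the same strand, so its counts may depend on how shared reads were assigned.

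Tmed2 and Tmed10, which form the core p24 complexes, rose 1.53-fold and 1.49-fold in ARNoC and 1.62-fold and 1.58-fold in WT. Tmed9 rose 1.50-fold in ARNoC and 1.58-fold in WT. Tmed5, with larger errors, rose 1.35-fold in ARNoC and 1.30-fold in WT, and total-count scaling ended both calls, at 0.09 on the log2 scale in ARNoC (adjusted p = 0.616) and -0.05 in WT (adjusted p = 0.762).

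The 3 KDEL receptors, which catch escaped ER residents in the Golgi for return in COPI vesicles, all rose, and by different amounts. Kdelr3 (chr15:79516411-79527739) was the least counted of them and rose most. ARNoC libraries held 371, 498, 439, 431 and 483 normalized counts with testosterone, against 209, 203, 164, 209 and 207 with vehicle. WT libraries held 553, 658, 541, 677 and 669.8 with testosterone, against 259, 243, 243, 192 and 171 with vehicle. The treatments lay far apart in both genotypes, and with testosterone all ARNoC libraries were below all WT libraries. Kdelr3 rose by 1.17 ± 0.11 on the log2 scale in ARNoC and by 1.49 ± 0.11 in WT, with edgeR adjusted p of 1.26e-07 and 4.81e-09. Kdelr1 (chr7:45872772-45883732), the most counted of the 3, rose least. In ARNoC it had 2935, 3425, 2476, 2687 and 3008 normalized counts with testosterone, against 2249, 2242, 2395, 2019 and 2571 with vehicle. In WT it had 3004, 3661, 2733, 3020.0 and 2985 with testosterone, against 2226, 2298, 2367, 2146 and 2030.0 with vehicle. ARNoC libraries overlapped, and WT libraries did not. Kdelr1 rose 1.27-fold in ARNoC and 1.40-fold in WT, with edgeR adjusted p of 0.00424 and 2.05e-04, whereas total-count scaling gave -0.002 on the log2 scale in ARNoC and 0.06 in WT. Kdelr2 rose 1.54-fold in ARNoC and 1.54-fold in WT, and under total-count scaling its WT value was 0.20 (adjusted p = 0.0629).

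All 4 cargo receptors rose in both genotypes. Lman1 (chr18:65980738-66022580), the lectin that carries glycoproteins such as clotting factors out of the ER, rose most in WT. ARNoC libraries held 2933, 3643, 3445, 3236 and 3492 normalized counts with testosterone, against 1715, 1994, 1759, 1654 and 1787 with vehicle. WT libraries held 3739, 4547, 3507, 4169 and 3915 with testosterone, against 1830.5, 1865, 1781, 1655 and 1621 with vehicle. All testosterone libraries were well above all vehicle libraries. Lman1 had a log2 change of 0.92 ± 0.07 in ARNoC and 1.19 ± 0.08 in WT, with edgeR adjusted p of 1.17e-08 and 3.21e-10. Mcfd2, the calcium-binding partner of Lman1, rose 1.47-fold in ARNoC and 1.78-fold in WT. Surf4, a receptor for soluble secreted proteins, rose 2.04-fold in ARNoC and 2.16-fold in WT. Lman2 (chr13:55343833-55362783), a lectin related to Lman1, rose least in WT. ARNoC libraries held 3890.2, 5069, 4508, 4154 and 4660.0 normalized counts with testosterone, against 2916, 3219.7, 3148, 2804 and 2999 with vehicle. WT libraries held 4407, 5267, 3625, 4716 and 4252 with testosterone, against 3189, 3303, 2848, 3015 and 2868 with vehicle. The treatments did not overlap. Lman2 rose by 0.57 ± 0.09 on the log2 scale in ARNoC and by 0.56 ± 0.09 in WT, with edgeR adjusted p of 3.09e-05 and 3.62e-05, and under total-count scaling the WT value was 0.13 (adjusted p = 0.118).

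Of the SNAREs and tethers, 4 of 5 rose in ARNoC and 5 of 5 in WT. Uso1 (chr5:92137938-92202798), also called p115, stood above all other members. ARNoC libraries held 6974, 7938, 8044, 7815 and 8369 normalized counts with testosterone, against 3091, 3509.7, 2848, 2570.3 and 3173 with vehicle. WT libraries held 7970.1, 10064, 7501, 8548 and 7642 with testosterone, against 3041, 3126, 3012, 2691 and 2629.6 with vehicle. In each genotype the lowest testosterone library lay far above the highest vehicle library. Uso1 rose by 1.37 ± 0.09 on the log2 scale in ARNoC and by 1.53 ± 0.09 in WT, with edgeR adjusted p of 7.41e-10 and 1.43e-10. Golga2 (chr2:32287384-32307921), the cis-Golgi protein to which Uso1 binds, moved least of the 5. In ARNoC it had 1856, 2109, 1806, 1767 and 1979 normalized counts with testosterone, against 1955, 1898, 1897, 1806 and 1884 with vehicle. In WT it had 2085, 2327, 2179, 2361 and 2038 with testosterone, against 1867, 1681, 1982, 1905 and 1912 with vehicle. The ARNoC groups overlapped throughout, and the WT groups were separate by a small gap. The log2 change of Golga2 was 0.02 ± 0.06 in ARNoC (edgeR adjusted p = 0.843), and in WT it rose by 0.24 ± 0.06 (adjusted p = 0.00262). Total-count scaling turned its log2 change to -0.33 in ARNoC (adjusted p = 6.01e-05) and -0.18 in WT (adjusted p = 0.00818). The SNAREs rose in both genotypes, Bet1 1.51-fold in ARNoC and 1.84-fold in WT, and Sec22b 1.44-fold in ARNoC and 1.63-fold in WT. Gosr2 rose 1.23-fold in ARNoC and 1.34-fold in WT, and total-count scaling ended both calls, at -0.05 on the log2 scale in ARNoC (adjusted p = 0.583) and 0.004 in WT (adjusted p = 0.965).

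**Figure D2:**
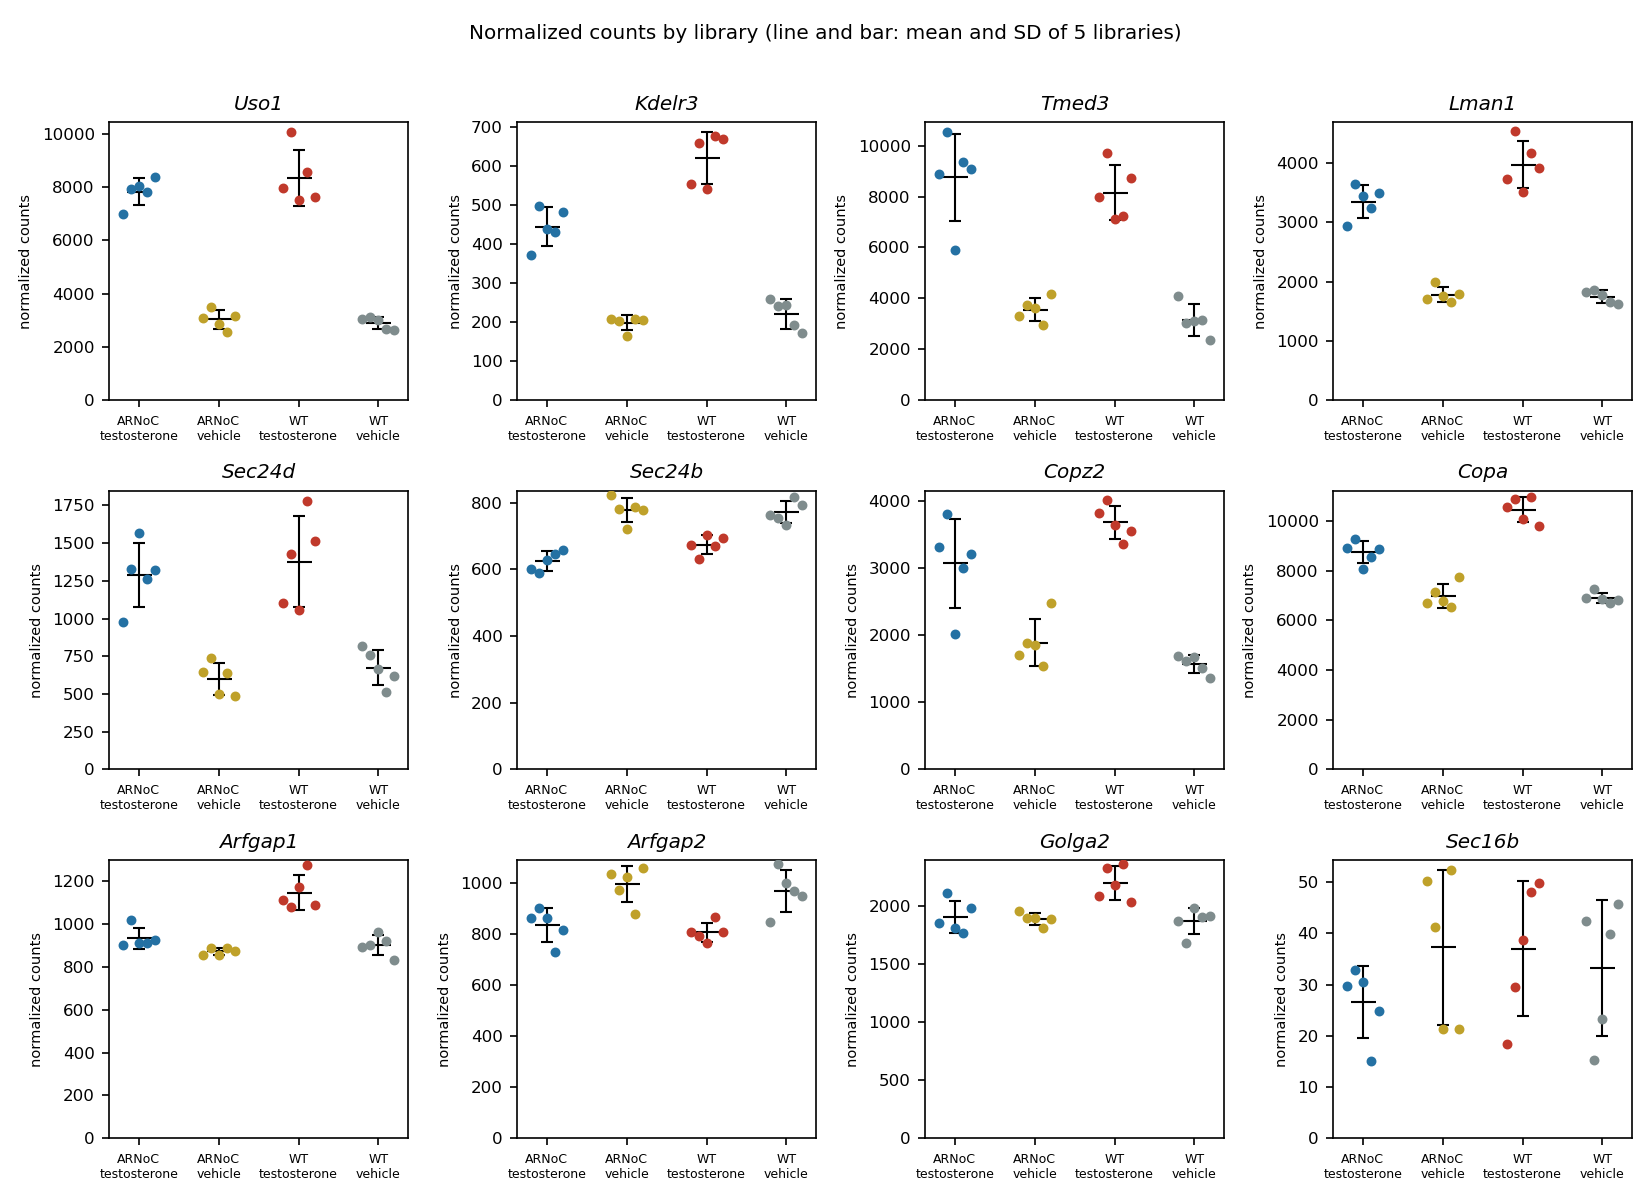
Normalized counts (y axis, from 0) of 12 transport genes in each library, by group, with the mean and SD of 5 libraries. Uso1, Kdelr3, Tmed3 and Lman1 separate testosterone from vehicle in both genotypes, Sec24b and Arfgap2 lie lower with testosterone, and Copa, Arfgap1 and Kdelr3 lie lower in ARNoC than in WT with testosterone.

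Levels of different genes were compared as normalized counts per kb of exon. The length is that of all annotated exons of a gene merged, which understates the level of genes with long rarely used exons. With testosterone Tmed3 had the highest level of the 43, at 3073 ± 600.0 per kb in ARNoC and 2863 ± 377 in WT (SD, n = 5 each). With vehicle Arf1 led, at 1591 ± 59.7 per kb in ARNoC and 1562 ± 87.2 in WT, and Tmed3 had rank 2 in ARNoC and 5 in WT. Surf4 came next to Tmed3 with testosterone, at 2357 ± 211 per kb in ARNoC and 2457 ± 302 in WT, and these 2 neighbours overlap within their SDs in both genotypes. Arf4 and Arf1, at ranks 3 and 4 with testosterone, also lie within their SDs of each other in both genotypes.

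Uso1 climbed the order most, to rank 9 in ARNoC with testosterone, against 16 with vehicle, and to rank 8 in WT with testosterone, against 18 with vehicle. Kdelr3 climbed to rank 32 in ARNoC with testosterone, against 36 with vehicle, and to rank 27 in WT with testosterone, against 36 with vehicle. Sec16b was last in all 4 groups, at 4.91 ± 1.31 per kb in ARNoC with testosterone, 6.89 ± 2.81 in ARNoC with vehicle, 6.83 ± 2.44 in WT with testosterone and 6.16 ± 2.45 in WT with vehicle. Its paralogue Sec16a stood at 468 ± 29.5 per kb in ARNoC with testosterone and 505 ± 70.5 in WT with testosterone. Levels above 1000 per kb were held by 10 members in ARNoC with testosterone, against 5 with vehicle, and by 15 in WT with testosterone, against 5 with vehicle.

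**Figure D3:**
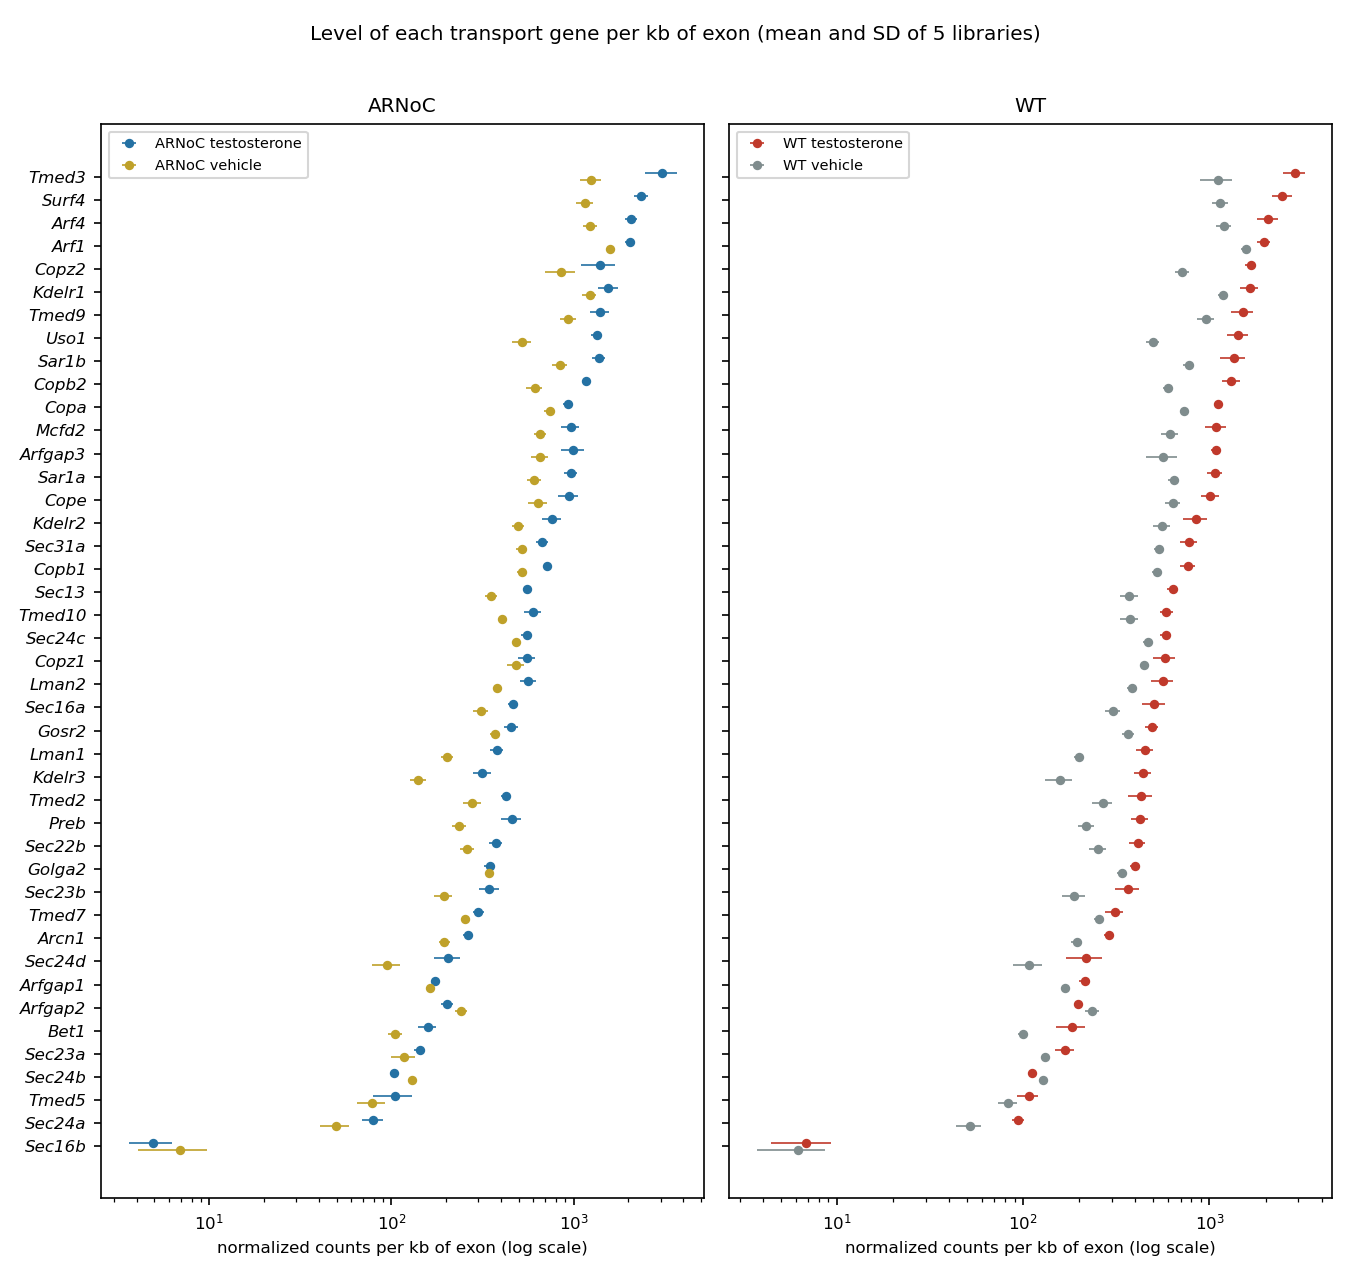
Normalized counts per kb of exon (x axis, log scale, mean and SD of 5 libraries) for the 43 transport genes (rows, by WT testosterone level), in ARNoC (left) and WT (right), with testosterone and with vehicle. Tmed3 and Surf4 lead with testosterone, and Sec16b is last in every group.

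Because paralogues moved unequally, the balance within pairs was measured as a log2 ratio of counts inside each library, which no scaling between libraries can change. These ratios were chosen with the unequal changes of the same libraries known, so their p-values in part restate those changes and are not independent evidence of them. In all 44 two-sided exact permutation tests were run (11 ratios in 4 comparisons, 5 libraries against 5, adjusted together by the Benjamini-Hochberg method), for which the smallest p is 0.00794. Testosterone changed 8 of 11 ratios in ARNoC and 8 of 11 in WT at an adjusted p of 0.05. The ratio of Sec24b to Sec24a, in counts not corrected for exon length, fell. It was 0.745 in ARNoC with testosterone, against 1.49 with vehicle, and 0.674 in WT with testosterone, against 1.41 with vehicle. As log2 ratios the ARNoC libraries gave -0.37, -0.26, -0.59, -0.59 and -0.32 with testosterone, against 0.80, 0.20, 0.74, 0.65 and 0.50 with vehicle. The WT libraries gave -0.57, -0.74, -0.58, -0.60 and -0.35 with testosterone, against 0.44, 0.13, 0.57, 0.65 and 0.70 with vehicle. Sec24b therefore had fewer counts than Sec24a in each of the 10 testosterone libraries and more in each of the 10 vehicle libraries. The merged exons measure 6020 bases in Sec24b and 10683 in Sec24a. Per kb of exon, Sec24b stayed above Sec24a in all 4 groups. Its means were 103.8 against 78.97 in ARNoC with testosterone and 129.1 against 49.29 with vehicle. In WT they were 112 against 93.84 with testosterone and 128.2 against 51.55 with vehicle. The difference in log2 ratio was -1.002 in ARNoC and -1.07 in WT (adjusted exact permutation p = 0.0233 and 0.0233).

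Within the other Sec24 pair, Sec24d over Sec24c gained 0.91 on the log2 scale in ARNoC and 0.70 in WT, with no overlap of libraries. Arfgap3 over Arfgap2 gained 0.85 in ARNoC and 1.22 in WT, and Arfgap3 had 4.55 times the counts of Arfgap2 in ARNoC with testosterone, against 2.52 times with vehicle, and 5.11 times in WT with testosterone, against 2.20 times with vehicle. Kdelr3 over Kdelr1 gained 0.82 in ARNoC and 1.02 in WT, Kdelr3 over Kdelr2 gained 0.55 in ARNoC and 0.88 in WT, and Arf4 over Arf1 gained 0.39 in ARNoC and 0.47 in WT. All of these reached the smallest exact p, and their adjusted p was 0.0233.

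Sec23b over Sec23a gained 0.53 in ARNoC and 0.60 in WT with overlapping libraries (adjusted exact permutation p = 0.0389 in each), and leaving out single libraries lost both calls. With a library left out the smallest exact p is larger, so such a loss also reflects a coarser test. Copz2 over Copz1 gained 0.50 in ARNoC (adjusted exact permutation p = 0.0524) and 0.87 in WT (0.0233). Sec16b over Sec16a had a difference of -1.02 in ARNoC (adjusted exact permutation p = 0.0389), with few counts behind it, and -0.55 in WT (0.292). The ratio of Sar1b to Sar1a was 0.480 in ARNoC with testosterone, against 0.465 with vehicle, and 0.422 in WT with testosterone, against 0.404 with vehicle, and its difference passed no test. Kdelr2 over Kdelr1 gained 0.28 in ARNoC and 0.14 in WT (adjusted exact permutation p = 0.0873 in each).

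**Figure D4:**
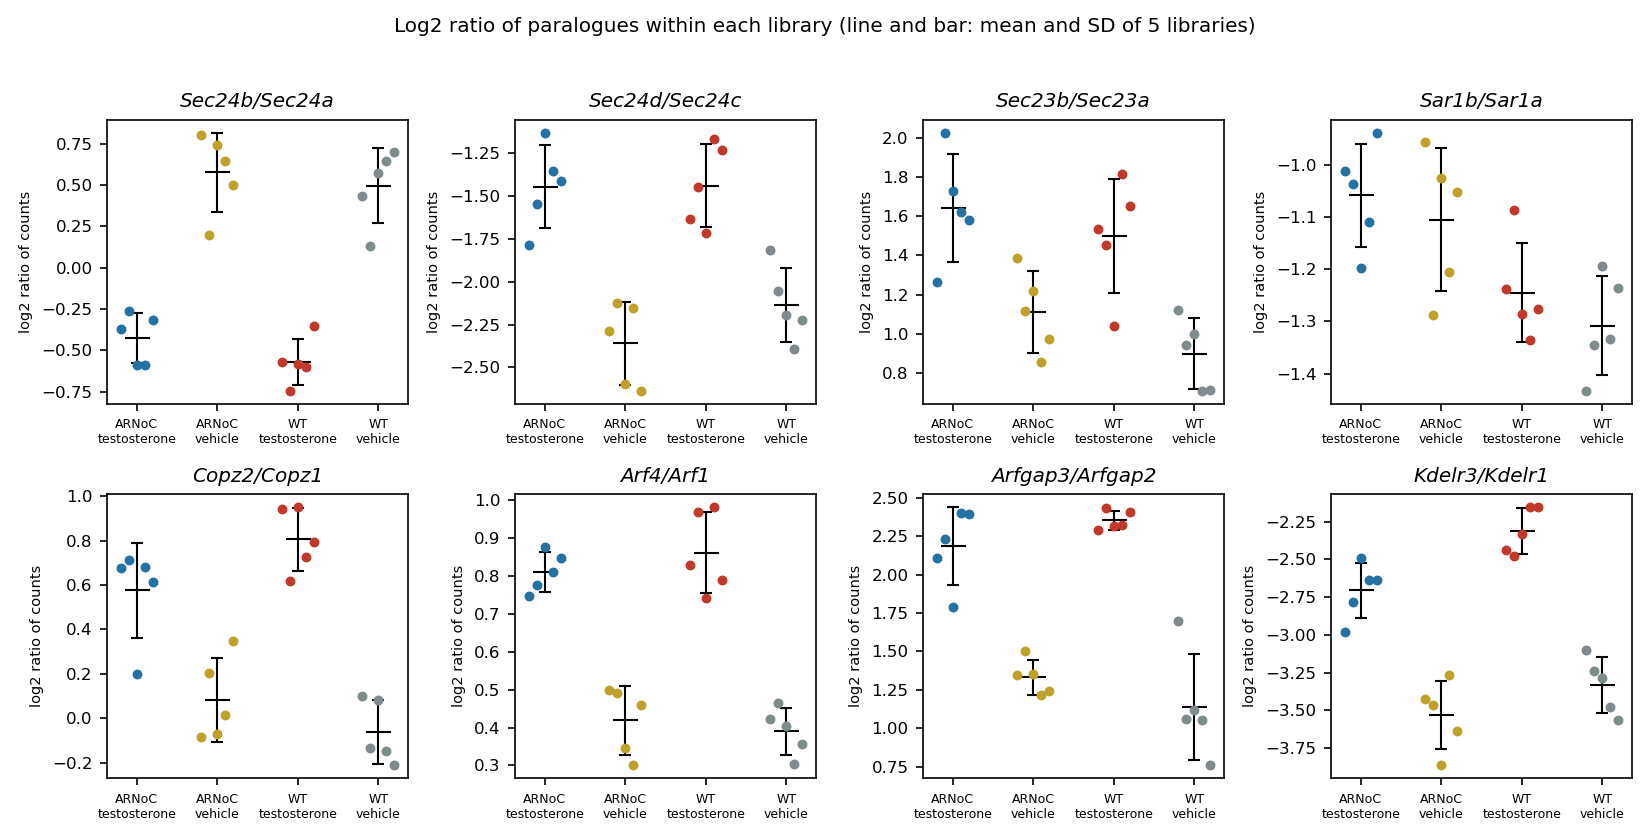
Log2 ratio of the counts of 2 paralogues, not corrected for exon length, in each library (y axis) for 8 pairs, by group, with the mean and SD of 5 libraries. Sec24b over Sec24a is below 0 in all testosterone libraries and above 0 in all vehicle libraries, and Sar1b over Sar1a shows no such shift.

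Between the genotypes few members were called. With vehicle 0 of 43 members differed between ARNoC and WT by edgeR, with 0 at an unadjusted p below 0.05, and 0 were called by DESeq2 or limma-trend, where edgeR called 0.321% of all genes tested. With testosterone 3 members were called, all lower in ARNoC than in WT, where 1.69% of all genes tested were called and 1.01% were called lower. These were Kdelr3, at 444 ± 49.8 normalized counts in ARNoC, against 619.6 ± 66.7 in WT, Arfgap1, at 932 ± 48.3 in ARNoC, against 1146 ± 81.2 in WT, and Copa, at 8731 ± 442 in ARNoC, against 10450.3 ± 509 in WT (SD, n = 5 each). The log2 difference was -0.48 ± 0.11 for Kdelr3 (edgeR adjusted p = 0.0314), -0.29 ± 0.06 for Arfgap1 (adjusted p = 0.00662) and -0.26 ± 0.06 for Copa (adjusted p = 0.0360). Without WT testosterone library 4 or ARNoC testosterone library 3, 1 member was still called, as in a fit of the 2 groups alone, and total-count scaling called 0, with adjusted p of 0.0538 for Kdelr3, 0.0725 for Arfgap1 and 0.0662 for Copa. DESeq2 called 5. The ratios of Kdelr3 to Kdelr1 and to Kdelr2 were also lower in ARNoC than in WT with testosterone, with differences of -0.39 and -0.32 on the log2 scale (adjusted exact permutation p = 0.0233 each), with no overlap of libraries.

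The response itself, compared between genotypes as an interaction, was called for 0 of 43 members, and for 0% of all genes tested. DESeq2 called 29 genes and limma-trend 1, none of them a member. Its value, the response in ARNoC less that in WT, was negative in 37 of 43 members, where 49% of all genes tested were negative, with a member median of -0.13. Total-count scaling left 29 of 43 members negative, with a median of -0.05. The 49% pools genes that rose with genes that fell, whereas nearly all members rose. The members were not compared with other rising genes, so the sign cannot be called particular to them. An unadjusted p below 0.05 was reached by 5 members, Copa, Copz2, Arfgap1, Lman1 and Golga2, where 8.55% of all genes tested reached it. For Copz2 the difference was -0.53 ± 0.19 (edgeR adjusted p = 0.459), for Copa -0.28 ± 0.09 (0.394), for Lman1 -0.27 ± 0.11 (0.493), for Arfgap1 -0.25 ± 0.08 (0.394) and for Golga2 -0.22 ± 0.08 (0.477). With trimmed-mean scaling all 7 COPI coat genes and all 5 SNAREs and tethers had the negative sign, with medians of -0.18 in each class. So did all 3 KDEL receptors, with -0.14. Under that scaling the sign prevailed in the other classes too. It held for 7 of 8 COPII coat genes, 4 of 5 assembly factors, 3 of 5 Arf cycle genes, 5 of 6 p24 genes and 3 of 4 cargo receptors. Total-count scaling turned the value above 0 for Sec23a (0.013), Sar1a (0.006), Arf4 (0.020) and Kdelr2 (0.075). It did the same for Tmed2 (0.002), Tmed3 (0.004), Tmed7 (0.039) and Tmed9 (0.001), so the pattern by class depends on the scaling. Across the 43 members the ARNoC and WT responses, which share no libraries, had a Pearson r of 0.934 and a Spearman rho of 0.943, and across all 15261 genes tested 0.805 and 0.792. These are descriptions across genes, which are not independent replicates.

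**Figure D5:**
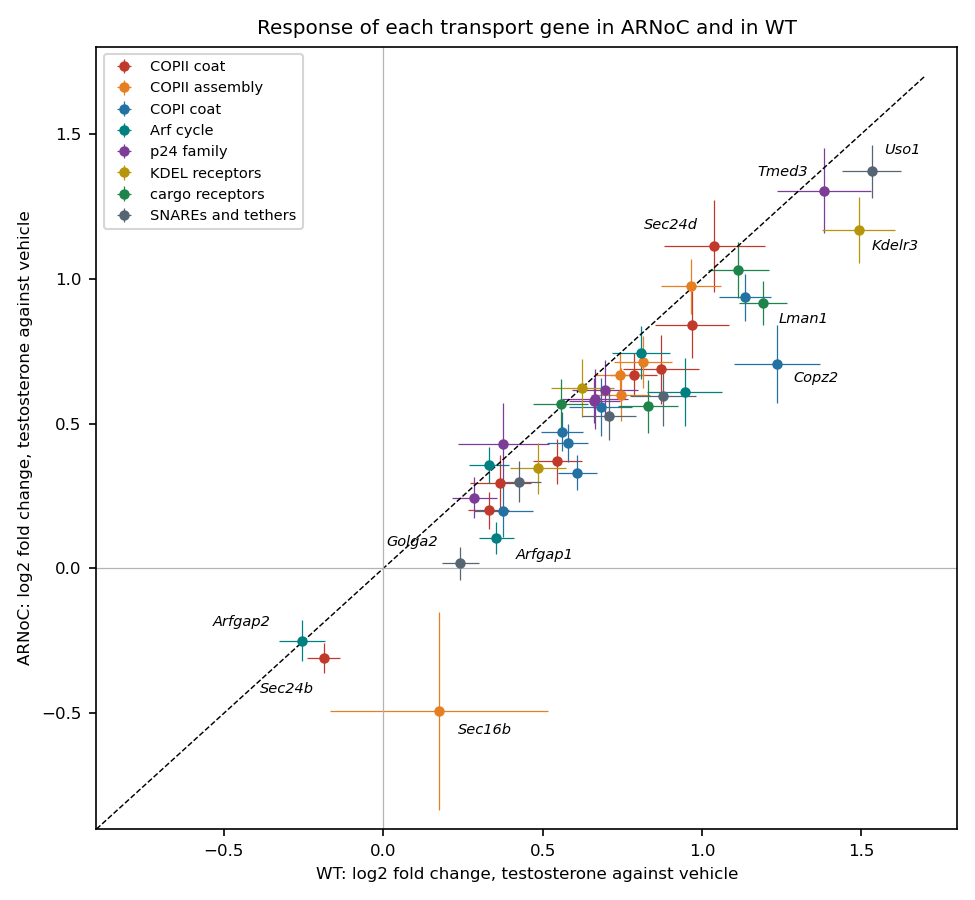
Log2 response to testosterone in ARNoC (y axis) against that in WT (x axis) for the 43 transport genes, with standard errors, coloured by class. The dashed line marks equal responses, and 37 of 43 genes lie below it, among them Copz2, Lman1 and Kdelr3.

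With trimmed-mean scaling, other genes of the same route moved in the same direction less far. Both lists were drawn up with earlier results of these data known. The choice of genes may bear on this difference, which was not tested. Of 64 further genes of coats, cargo receptors, SNAREs, Rab GTPases and tethers, 63 were tested, and Tmed6 had too few counts. In ARNoC 40 rose and 4 fell, with a median log2 change of 0.27, and in WT 43 rose and 6 fell, with a median of 0.31. These medians are smaller than the shifts of all genes with total-count scaling, -0.35 in ARNoC and -0.42 in WT. The mean summed share of counts of the 64 was 0.718% in ARNoC with testosterone, against 0.719% with vehicle. In WT it was 0.712% with testosterone, against 0.698% with vehicle. Their common rise therefore depends on the scaling. Among the 12 SNAREs and fusion factors 11 rose and 1 fell in each genotype. The exception was Use1, a SNARE of vesicles arriving at the ER, with a log2 change of -0.53 ± 0.09 in ARNoC and -0.49 ± 0.09 in WT (edgeR adjusted p = 9.13e-05 and 1.89e-04). Among 15 tested p24 and cargo receptor genes 7 rose and 1 fell in ARNoC, and 7 rose and 2 fell in WT. Ergic1, a protein of the ER-Golgi intermediate compartment, rose most of the 63, by 0.89 ± 0.11 in ARNoC and 1.16 ± 0.11 in WT, followed in WT by Scfd2 with 0.83 ± 0.11 in ARNoC and 0.97 ± 0.11 in WT. Mia2, which helps load large cargo into COPII vesicles, fell most, with a log2 change of -0.93 ± 0.18 in ARNoC and -0.68 ± 0.18 in WT. Copg1, the gamma subunit of COPI that is not among the 43, was the only one of the 63 called between genotypes with testosterone, and its log2 difference of ARNoC over WT was -0.28 ± 0.06 (edgeR adjusted p = 0.0160).

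Of 14 genes that encode regulators of secretory capacity, 13 were tested. With trimmed-mean scaling 7 rose in ARNoC and 8 in WT, and none fell in either. Of all genes tested 19.4% rose in ARNoC and 20.4% in WT. The median log2 change of the regulators was 0.23 in ARNoC and 0.40 in WT. Both are smaller in size than the all-gene shifts with total-count scaling, -0.35 in ARNoC and -0.42 in WT. The smaller changes here may therefore depend on the scaling. Creb3l4, a membrane-bound transcription factor of the ER that is abundant in prostate, rose most, by 2.06 ± 0.17 in ARNoC and 2.04 ± 0.18 in WT, with edgeR adjusted p of 1.66e-08 and 2.22e-08. Mbtps1, the Golgi protease that frees such factors, rose 1.73-fold in ARNoC and 1.60-fold in WT, and with testosterone it was higher in ARNoC than in WT by 0.26 ± 0.06 (adjusted p = 0.0365). Bhlha15, a factor of secretory cell architecture also called Mist1, had a log2 change of 0.18 ± 0.18 in ARNoC (edgeR adjusted p = 0.469) and rose by 1.06 ± 0.19 in WT (adjusted p = 1.37e-04), and the difference of these responses was -0.88 ± 0.26 (adjusted p = 0.394). With vehicle its normalized counts were 6343 to 10165 in ARNoC and 3094 to 6092 in WT, and 0 regulators were called there. Libraries did not overlap in that comparison for 2 of the 13 tested regulators, Bhlha15 and Creb3l2. The share of all genes so separated was not computed. With testosterone the counts of Bhlha15 overlapped, at 6553 to 13506 in ARNoC and 8748 to 10355 in WT. Xbp1, the factor spliced during the unfolded protein response, had 0.14 ± 0.12 in ARNoC (edgeR adjusted p = 0.381) and rose by 0.35 ± 0.12 in WT (adjusted p = 0.0249). At the low end were Ddit3, with -0.33 ± 0.13 in ARNoC and -0.21 ± 0.14 in WT, and Mbtps2, with -0.04 ± 0.07 in ARNoC and -0.12 ± 0.07 in WT, none of them called.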

How the data were processed

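Ventral prostate RNA was purified with the NucleoSpin TriPrep kit and made into Illumina TruSeq libraries, per the labels' protocols. The submitters' processing notes name FastQC 0.11.7, HISAT2, SAMtools 1.5, HTSeq, DESeq2 and mouse build mm10. For the counting, annotation and strand setting are not given in the sources used. The authors deposited a table of raw counts for 43472 genes in 20 libraries and a normalized signal table of 23221 genes, in which each value equals the deposited count divided by a size factor. Normalized counts printed here are on that scale, computed from the counts.

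Groups came from GEO's labels. Replicate numbers follow the order of deposit and pair nothing. Counts were tested with edgeR 4.0.16 in R 4.3.3: trimmed-mean scaling, 1 mean per group over all 4 groups, the quasi-likelihood test and Benjamini-Hochberg adjustment over the 15261 genes that reached a normalized count of 10 in 5 or more libraries, at an adjusted p of 0.05. The common biological coefficient of variation was 0.214. Standard errors are the log2 change divided by the square root of the F statistic. Paralogue ratios used counts plus 0.5 and exact permutation tests (scipy 1.17.1). Exon lengths and overlaps came from GENCODE M21. Libraries held 8861646 to 21600352 counts, and all 40 pairs of libraries within a group differed beyond counting noise (chi-square per degree of freedom 7.97 to 42.7). The code was tested on simulated counts. Alternatives were DESeq2 1.42.0, limma-trend (limma 3.58.1), other scalings and filters, and leaving out libraries.

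Members and gene lists were chosen with earlier results of these data known. The 18 members given by library are, in each class, those with the largest and the smallest WT testosterone change, and any member called between genotypes, called down or not called with testosterone in either genotype. Of the lists of other pathway genes and regulators, the 2 largest and 2 smallest WT changes are named, and Copg1, Mbtps1 and Xbp1 were added after their values were seen. Protein sequences were not used here.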

Additional observations from a re-analysis of the deposited data

Results flagged for a closer look

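Of 72 groups of 5 libraries, 18 members in 4 groups each, 4 held 1 library whose gap to the nearest of the others exceeded 0.71 of the range of the group, the critical value of Dixon's test for 5 samples. Chance flags about 1 in 20 groups. Preb had 4021 normalized counts in ARNoC testosterone library 2, and the other 4 libraries of that group had 3023 to 3285. Arfgap1 had 1017 normalized counts in the same ARNoC library, and the other 4 had 900.3 to 923. Copz1 had 2615 normalized counts in WT testosterone library 2, and the other 4 had 1886 to 2054. Kdelr3 had 164 normalized counts in ARNoC vehicle library 3, below the other 4, which had 203 to 209. The 2 testosterone libraries named here were also those highest in their groups for most of the 43 members.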

How the results depend on the processing

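Total-count scaling turned more signs than any other alternative run. Under it 6 members fell in ARNoC, and 0 members differed between ARNoC and WT with testosterone. DESeq2 called 5 members in that comparison and a fit of only the groups compared called 1. Leaving out each library in turn gave 1 to 3 there, 33 to 37 rising members in ARNoC, 39 to 40 in WT, 2 falling members in each, 0 for the interaction and 16 to 21 called ratios. Among the 18 members given by library, signs that turned below 0 with total-count scaling were those of Copa in ARNoC (-0.015), Copz1 in ARNoC (-0.15) and WT (-0.052), Arfgap1 in ARNoC (-0.24) and WT (-0.065), Tmed7 in ARNoC (-0.10) and WT (-0.14), Kdelr1 in ARNoC (-0.0020), Golga2 in ARNoC (-0.33) and WT (-0.18) and Sec16b in WT (-0.24). Among the other 25 members they were those of Sec23a in ARNoC (-0.047) and WT (-0.059), Sec24c in ARNoC (-0.15) and WT (-0.093), Arf1 in WT (-0.093), Tmed5 in WT (-0.051) and Gosr2 in ARNoC (-0.048). The shift of the median of all genes moves with this scaling. Golga2 in ARNoC was also below 0 with no filter (-0.029) and in the fit of only the groups compared (-0.021), and leaving out single libraries gave -0.0572 to 0.0295. For Sec16b in WT the same gave -0.00643 to 0.31. Neither was called in those fits. The cause was not tested. Of the values of these 18 members under alternatives, 1081 kept direction and call, 22 lost the call, 1 gained it and 25 turned sign. Of the ratios 454 kept both, 26 lost the call and 4 gained it. The exact test of a ratio is coarser with a library left out, so its calls are then lost more easily. The interaction was not run in the fit of only the groups compared. No paired analysis was possible because the replicate numbers follow the order of deposit and pair no libraries. Sec16b, the member with the fewest counts, is limited most by depth.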
